A study of Mus musculus with 6 samples.

Results

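Complement is a set of blood and cell surface proteins that mark and attack cells, and its components and regulators were followed here in mouse prostate tumor cells after androgen withdrawal. The set consisted of C3, C2, C4b, Cfb, Cfd, Cd55, Cd59a, Clu and Serping1, and each was read from the brightest transcript cluster that carried exactly 1 gene symbol. Of these 9 genes, 7 were measured this way, among 30142 genes tested. C3 and Cfd were not analysed here.

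The cells came from allografts of MCRedAL, a mouse prostate cancer line that carries the red fluorescent protein mCherry, grown in male mice. Sorting kept cells with mCherry and removed those with the leukocyte antigen CD45 or the myeloid antigens encoded by Adgre1 and Itgam. In 3 tumors the mice had received degarelix, a blocker of the gonadotropin-releasing hormone receptor that stops testicular androgen production, given under the skin once tumors measured about 500 mm2 (the labels' unit), and 3 tumors were untreated. All groups share the 1 line, the sort and the site labelled prostate, and the strain and age of the mice are not known here. The titles call the untreated samples intact and give the degarelix samples a tag that may count days. The labels do not explain this tag, so the interval between degarelix and sampling was not taken from it. The labels call the samples biological replicates, and total RNA of each (RNA integrity number at least 9) was read on its own Affymetrix MTA 1.0 array.

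Complement can be started by antibody-bound C1q with its proteases C1r and C1s (classical pathway), by sugar-binding lectins, or by slow spontaneous activation of C3 (alternative pathway). Classical and lectin activation cut C4 and C2 into a C3-cleaving enzyme, and the alternative pathway builds its counterpart from C3 and factor B. Host cells limit the cascade with soluble inhibitors such as C1 inhibitor, clusterin and vitronectin and with membrane proteins such as CD55 and CD59. Many complement proteins are made in the liver as part of the acute phase response, and epithelial cells, fibroblasts and macrophages also make some of them.

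All values are log2 expression values, so that a difference of 1 is a 2.0-fold difference. The array medians lay between 4.70 and 4.84, and the 23 background probe sets reached 6.93. The labelled cell type was checked against its markers. The luminal keratin gene Krt8 lay at 11.83, 11.86 and 12.09 in degarelix samples and at 11.25, 11.90 and 11.49 in untreated samples. The epithelial adhesion gene Epcam lay at 3.84 to 3.98 and 3.79 to 3.89, below the brightest background probe set. The epithelial genes Krt18 and Cdh1 also lay below that probe set in every sample, and Krt19 lay above it in every sample. Hoxb13 lay near it, and below it only in degarelix replicate 3. The markers thus gave a mixed picture of the labelled cell type. Macrophage and monocyte genes were highest in untreated replicate 1: the mean over 10 of them was 5.93, 6.0 and 5.94 in degarelix samples, against 7.30, 5.91 and 6.49 in untreated replicates 1, 2 and 3. Fibroblast genes were highest in degarelix replicate 3: the mean over 9 of them was 8.18, 7.95 and 8.58 in degarelix samples, against 7.72, 7.69 and 7.98 in untreated samples.

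Of the 7 measured genes, 5 were higher after degarelix, none was lower, and 2 did not pass the test. Over all genes tested 4.19% were higher by the same rule, an adjusted p under 0.05 in limma after Benjamini-Hochberg adjustment over every gene, and 7.51% were lower. The median change of the 7 genes was 0.85, against 0.04 for all genes. The 5 genes that rose were Cfb, C2 and C4b, which encode parts of the C3-cleaving enzymes, Serping1, which encodes the C1 inhibitor, and Cd59a, which encodes an inhibitor of the membrane attack complex. Clusterin (Clu) and Cd55 did not pass. The groups did not overlap for 5 of the 7 genes, all higher after degarelix. With 3 samples per group this was common: it held for 9397 of the 30142 genes tested, 4465 of them higher after degarelix.

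**Figure D1:**
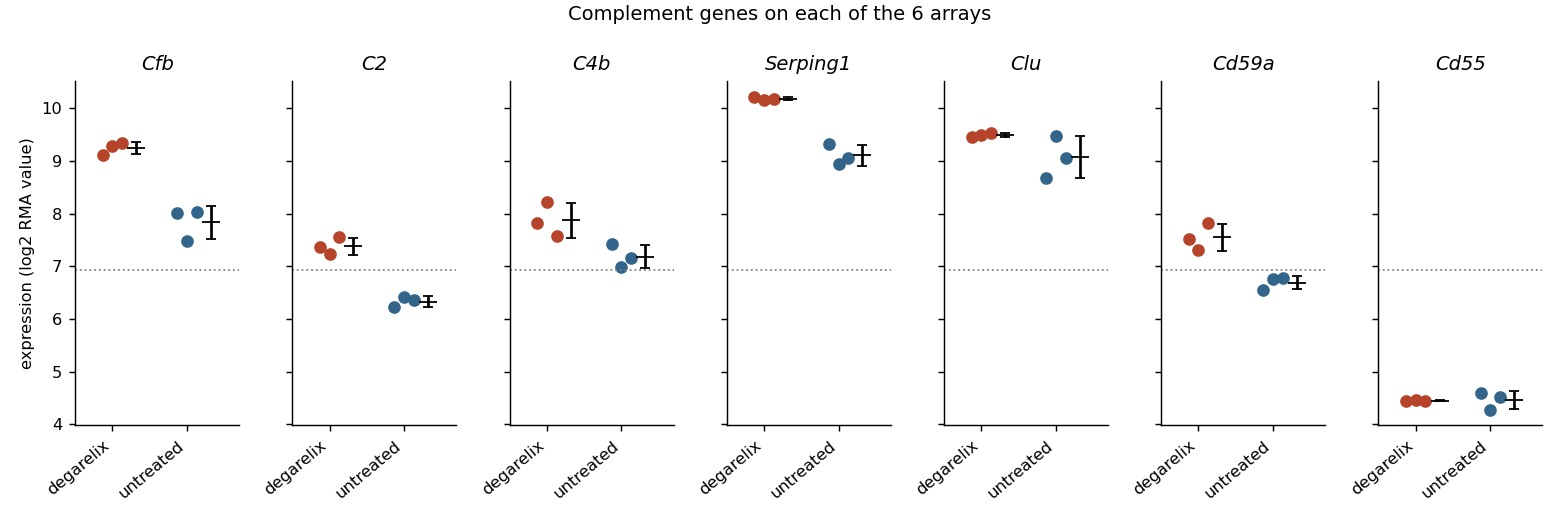
Expression of the 7 measured complement genes (vertical axis, log2 RMA value) on each array, with 3 degarelix arrays in red left of 3 untreated arrays in blue. Points are single arrays, black bars the mean and SD of each group, and the dotted line the brightest background probe set at 6.93. The groups stand apart for Cfb, C2, C4b, Serping1 and Cd59a, as they did for 9397 of the 30142 genes tested, and overlap for Clu and Cd55.

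Cfb encodes factor B, the protease of the alternative pathway C3 convertase. It lay at 9.12, 9.28 and 9.35 in degarelix samples, against 8.01, 7.48 and 8.03 in untreated samples. The lowest degarelix value was above the highest untreated value, and untreated replicate 2 was the lowest of all. The change was 1.41 (SE 0.15, 95% interval 1.08 to 1.74), a 2.66-fold difference (limma adjusted p = 6.94e-04). Of all genes tested, 0.196% had a larger change. In bulk samples a different share of cells of one type and a different amount of RNA per cell cannot be told apart.

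C2 encodes the protease of the classical and lectin C3 convertase and is a paralog and chromosomal neighbour of Cfb. Its level was 7.36, 7.23 and 7.55 in degarelix samples, against 6.22, 6.42 and 6.36 in untreated samples. All untreated values lay below the brightest background probe set and all degarelix values above it, so that the size of the change, 1.05 (SE 0.10, 2.07-fold, limma adjusted p = 4.52e-04), is less certain than for brighter genes. A second, dimmer cluster annotated to C2 lay at 5.36, 5.56 and 5.31 in degarelix samples and at 5.35, 5.40 and 5.38 in untreated samples, with a change of 0.03 (SE 0.08, limma adjusted p = 0.815 over all clusters). With the mean of both clusters the change of C2 was 0.54 (limma adjusted p = 0.00179).

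C4b encodes complement C4, the other part of the classical and lectin convertase. It lay at 7.82, 8.23 and 7.57 in degarelix samples, against 7.42, 6.98 and 7.15 in untreated samples. The groups did not overlap, but the closest values were 7.57 and 7.42, and degarelix replicate 2 was the highest. The rise of 0.69 (SE 0.17, 1.62-fold, limma adjusted p = 0.0342) was the least secure of the 5. The call was lost under cyclic loess (adjusted p = 0.0513) and without degarelix replicate 1 (0.0998), degarelix replicate 2 (0.0819), untreated replicate 2 (0.102) or untreated replicate 3 (0.0982), with changes of 0.51 to 0.85 over the samples left out.

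C4a is a near-identical copy of C4b that lies close to it, so the arrays may read transcripts of both genes at either cluster. C4a lay at 7.14, 7.41 and 6.90 in degarelix samples, against 6.84, 6.56 and 6.61 in untreated samples, with a change of 0.48 (SE 0.13, limma adjusted p = 0.0518). As for C4b, degarelix replicate 2 was the highest.

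Serping1 encodes the C1 inhibitor, a serpin that blocks C1r, C1s and the lectin pathway proteases. It lay at 10.22, 10.15 and 10.18 in degarelix samples, against 9.33, 8.94 and 9.06 in untreated samples. The degarelix samples lay close together and all above the untreated ones. The change was 1.07 (SE 0.10, 95% interval 0.84 to 1.30), a 2.1-fold difference (limma adjusted p = 4.92e-04). Clu encodes clusterin, a secreted chaperone that binds forming membrane attack complexes. It lay at 9.45, 9.49 and 9.54 in degarelix samples and at 8.68, 9.48 and 9.05 in untreated samples. The degarelix values were close together, while the untreated values were spread and replicate 2 reached the degarelix level. The difference of 0.42 (SE 0.17, 95% interval 0.03 to 0.82) did not pass the test over all genes (limma adjusted p = 0.159). It was 0.63 without untreated replicate 2 (limma adjusted p = 0.018) and 0.23 without untreated replicate 1 (limma adjusted p = 0.248).

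Cd59a encodes a lipid-anchored surface protein that stops C9 from assembling into a pore. It lay at 7.51, 7.32 and 7.82 in degarelix samples, against 6.55, 6.76 and 6.77 in untreated samples, a change of 0.85 (SE 0.13, 1.81-fold, limma adjusted p = 0.00398). The groups did not overlap, and the untreated values lay below the brightest background probe set. Its neighbour and paralog Cd59b, which in mice is expressed mainly in testis, lay at 6.55, 6.45 and 6.65 in degarelix samples and at 6.53, 6.55 and 6.42 in untreated samples. Those groups overlapped, with a change of 0.05 (SE 0.08, 95% interval -0.13 to 0.23, limma adjusted p = 0.701). All values of Cd59b were below the brightest background probe set, so a change of it could have been missed, and the difference between the paralogs was not tested.

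Cd55 encodes decay-accelerating factor, a lipid-anchored protein that dissociates the C3 convertases. Its values were 4.45, 4.46 and 4.44 in degarelix samples and 4.59, 4.28 and 4.53 in untreated samples. The change of -0.02 (SE 0.09, 95% interval -0.22 to 0.18) had a limma adjusted p = 0.903 and was not called. All values were below the brightest background probe set, and a change of Cd55 RNA could have been missed.

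The upstream sequences of these membrane regulators, a paralog pair with changes of 0.85 and 0.05 and the dim Cd55, are shown for comparison from RefSeq (GRCm38.p6). Each is the 250 bases before the annotated gene start, 5′ to 3′ on the gene's strand, in lower case with motif matches in capitals.
Cd59a, chr2:104095551-104095800, plus strand: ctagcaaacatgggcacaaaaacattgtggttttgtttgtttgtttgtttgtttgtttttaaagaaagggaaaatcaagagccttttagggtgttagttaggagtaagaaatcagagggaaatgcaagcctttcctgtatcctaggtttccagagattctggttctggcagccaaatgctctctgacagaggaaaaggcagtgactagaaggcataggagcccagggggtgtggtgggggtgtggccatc
Cd59b, chr2:104070816-104071065, plus strand: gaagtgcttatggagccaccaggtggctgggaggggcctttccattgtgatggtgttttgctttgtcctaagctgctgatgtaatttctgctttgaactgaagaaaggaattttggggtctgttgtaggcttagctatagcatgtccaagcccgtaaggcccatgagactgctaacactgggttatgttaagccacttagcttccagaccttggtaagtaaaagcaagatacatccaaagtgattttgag
Cd55, chr1:130462745-130462994, minus strand: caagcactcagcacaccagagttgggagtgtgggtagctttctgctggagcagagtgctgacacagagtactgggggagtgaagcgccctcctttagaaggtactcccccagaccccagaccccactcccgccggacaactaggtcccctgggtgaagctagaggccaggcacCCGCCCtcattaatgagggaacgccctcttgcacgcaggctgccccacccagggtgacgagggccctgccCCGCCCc

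The capitals in Cd55 mark 2 matches to the GC box (GGGCGG on either strand), at 77 to 72 and at 7 to 2 bases before the start. The other motifs searched were the TATA box (TATAAA, gene strand only) and, on both strands, the CCAAT box (CCAAT), the STAT element (TTCNNNGAA), the NF-kB site and the sequence TGTTCT that androgen and glucocorticoid receptors bind. None of these letters occurred in the 3 windows, and no GC box in the windows of Cd59a and Cd59b. Of 32851 windows of the same length, 32.7% held a GC box, 7.59% a TATA box, 33.8% a CCAAT box, 7.02% a STAT element, 7.25% an NF-kB site and 16.1% the sequence TGTTCT. The share of G and C was 44.8% in Cd59a, 45.6% in Cd59b and 64.0% in Cd55, against a median of 52.4%. A match is a description of the letters and not of a bound site.

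The rest of the pathway was read from a list of 53 complement genes that includes the 9 above. Of 48 measured, 9 were higher after degarelix and none was lower, with a median change of 0.12. Outside the 7 genes described so far, 4 of 41 measured genes were higher (9.76%, against 4.19% of all genes), namely Vtn, C1ra, C1rb and Thbd. C1ra and C1rb had nearly the same values and may share array signal. Thbd lost its call under 9 of the 15 alternative settings described below. The count is therefore too small to set these genes apart from all genes. Of the 41 genes, the mean level of 5 lay above the brightest background probe set, so changes of most of the others could have been missed.

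**Figure D2:**
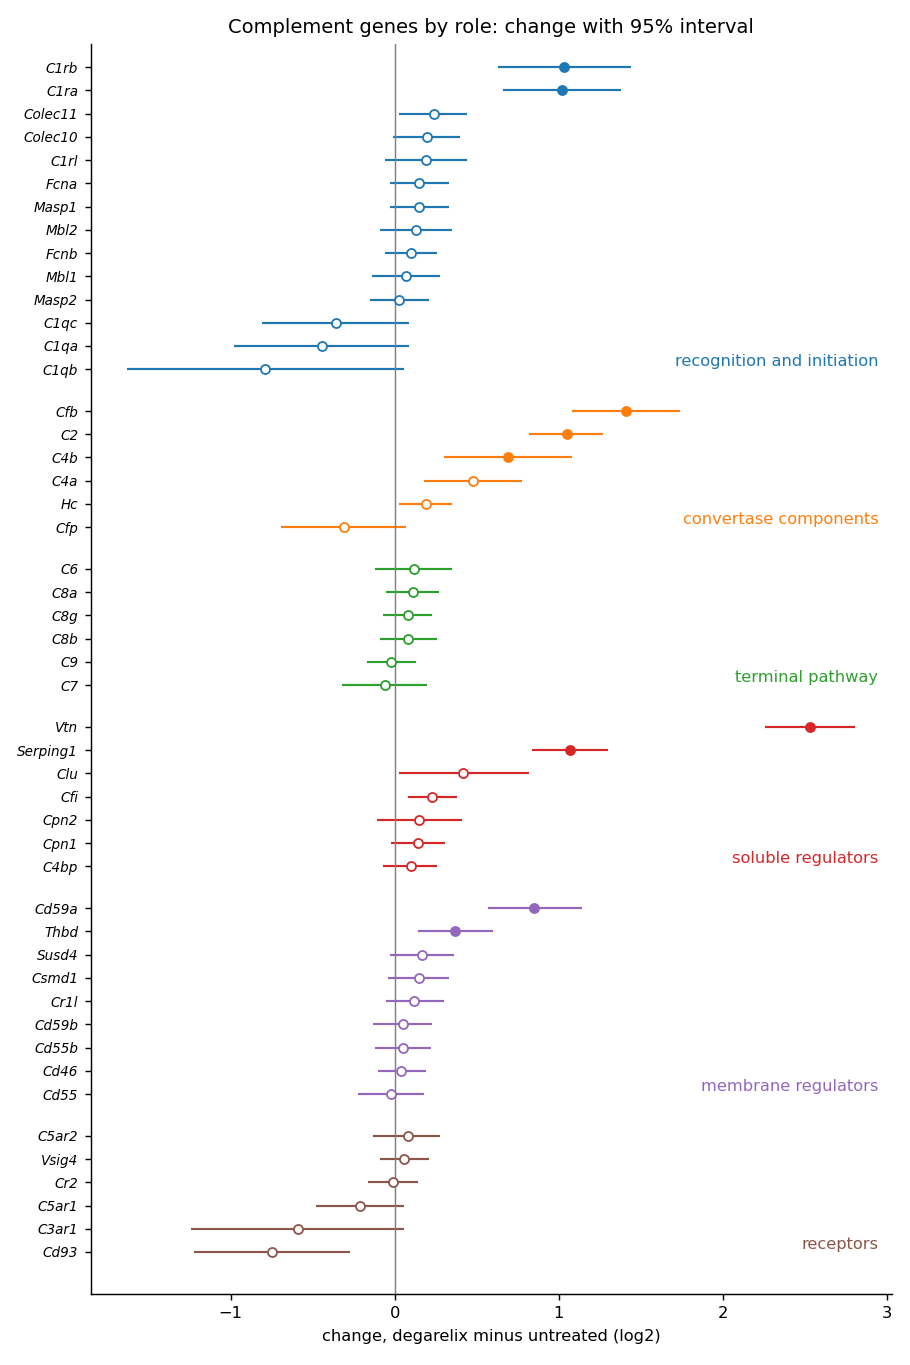
Change after degarelix (horizontal axis, degarelix minus untreated, log2) of the 48 measured complement genes, grouped by role and sorted within each role. Points are limma estimates, bars their 95% intervals, and filled points passed the test. Vtn stands farthest to the right at 2.53, and no gene left of 0 has a filled point.

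Among soluble regulators, Vtn encodes vitronectin, a plasma and matrix protein that keeps the terminal complex from inserting into membranes and also carries adhesive functions. Vtn lay at 9.43, 9.45 and 9.84 in degarelix samples, against 7.16, 7.06 and 6.90 in untreated samples. The groups were far apart, and the change of 2.53 (SE 0.12, 5.79-fold, limma adjusted p = 3.44e-05) was the largest on the complement list. In this group 2 of 7 measured genes, Serping1 and Vtn, were higher, and Cfi, which encodes the protease that inactivates C3b and C4b, had a change of 0.23 (limma adjusted p = 0.057). The levels of Cfi, 4.61 to 4.67 in degarelix and 4.35 to 4.46 in untreated samples, were below the brightest background probe set.

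Among genes of recognition and initiation, 2 of 14 measured genes were higher, the C1r genes C1ra and C1rb. C1ra lay at 7.36, 7.36 and 7.87 in degarelix samples, against 6.27, 6.57 and 6.69 in untreated samples, a change of 1.02 (SE 0.16, limma adjusted p = 0.00478). C1rb lay at 7.32, 7.36 and 7.93 in degarelix samples, against 6.20, 6.62 and 6.67 in untreated samples, a change of 1.03 (SE 0.18, limma adjusted p = 0.00818). All untreated values of both genes were below the brightest background probe set, so the sizes are less certain. These paralogs may share array signal and are uncertain as single genes. Both were highest in degarelix replicate 3, the sample with the highest fibroblast genes, and without it their changes were 0.85 and 0.84 (limma adjusted p = 0.0118 and 0.018). Without that sample Serping1 changed by 1.07, Cfb by 1.36, C2 by 0.96 and Cd59a by 0.72, each still past the test. The fibroblast gene Dcn still lay at 8.71 and 8.55 in the remaining degarelix samples, against 6.94, 7.35 and 8.02 in untreated samples. Leaving out 1 sample is thus no test of the part of fibroblasts in these changes.

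Of the 9 measured fibroblast genes, 2 were higher after degarelix and none was lower, against 4.19% and 7.51% of all genes. Dcn, which encodes decorin, lay at 8.71, 8.55 and 9.43 in degarelix samples, against 6.94, 7.35 and 8.02 in untreated samples, a change of 1.46 (SE 0.29, limma adjusted p = 0.0147). Fbln1, which encodes fibulin-1, changed by 1.07 (SE 0.11, limma adjusted p = 6.10e-04). The collagen genes Col1a1 and Col1a2 lay near each other in both groups, with changes of 0.15 and 0.27 (limma adjusted p = 0.567 and 0.242). Lum, which encodes lumican, had a change of 1.19 (limma adjusted p = 0.105), and Postn, which encodes periostin, one of -0.68 (limma adjusted p = 0.0517). The sort kept cells with mCherry, and its purity is not known here. The part of host fibroblasts in the changes of complement genes was not tested.

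The C1q subunit genes encode the recognition part of the classical pathway and are made mainly by macrophages. C1qb lay at 6.58, 6.49 and 6.32 in degarelix samples, against 8.23, 6.41 and 7.10 in untreated samples. Untreated replicate 1 was the highest, replicate 3 the next, and replicate 2 was among the degarelix values. The degarelix values of C1qb and all values of C1qc were below the brightest background probe set. The sizes of their changes are less certain. The changes of C1qa, C1qb and C1qc were -0.44, -0.79 and -0.36, and none passed the test (limma adjusted p = 0.27, 0.221 and 0.284). Without untreated replicate 2 they were -0.73, -1.20 and -0.60 and passed (limma adjusted p = 0.0257, 0.0364 and 0.0313), and without untreated replicate 1 they were -0.17, -0.30 and -0.13 and did not (limma adjusted p = 0.497, 0.307 and 0.538). The mean of the 3 genes was 6.56, 6.56 and 6.45 in degarelix samples, against 7.71, 6.42 and 7.02 in untreated samples, with the same order of the untreated samples as the macrophage and monocyte genes.

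None of the 10 macrophage and monocyte genes passed the test, and 9 had a change below 0. Adgre1, a macrophage surface receptor gene used in the sort, lay at 4.97, 5.02 and 4.91 in degarelix samples and at 6.05, 4.87 and 5.24 in untreated samples, all below the brightest background probe set. Ptprc, which encodes CD45, lay at 3.72 to 3.77 in degarelix samples and at 3.68 to 4.47 in untreated samples. Lyz2, the lysozyme gene of myeloid cells, had 5.51, 5.98 and 6.27 in degarelix samples, against 9.02, 6.26 and 7.65 in untreated samples (chosen after its values were seen). The part of myeloid cells in the C1q values was not tested. Without untreated replicate 1, Cfb changed by 1.50, Serping1 by 1.18, C2 by 0.99 and Cd59a by 0.78. Lyz2 still lay at 6.26 and 7.65 in the remaining untreated samples. Leaving out 1 sample is thus no test of the part of myeloid cells in these changes.

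**Figure D3:**
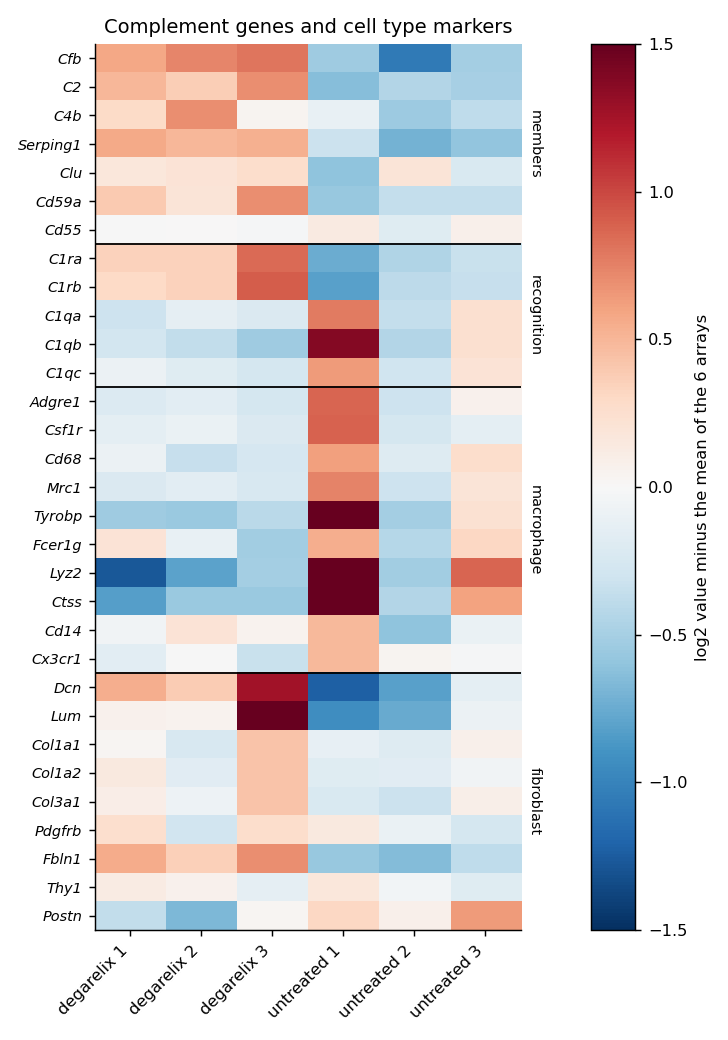
Log2 value minus the gene's mean over the 6 arrays (colour, red high and blue low) for the measured complement genes, C1r and C1q genes, and the marker genes of macrophages and fibroblasts, with degarelix arrays left of untreated arrays. C1q and macrophage genes are red in untreated replicate 1. Cfb, C2, C4b, Serping1, Cd59a, C1ra and C1rb are red or near white in the 3 degarelix arrays. They are blue in the 3 untreated arrays, except that C4b is near white in untreated replicate 1.

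Of 6 measured receptor genes none passed the test (median change -0.11). All values of these 6 genes were below the brightest background probe set, so the sizes of their changes are less certain. Cd93, a surface protein of endothelial and myeloid cells once taken for a C1q receptor, had a change of -0.75 (SE 0.21, limma adjusted p = 0.0526) and values of 5.46, 5.62 and 5.79 in degarelix samples, against 6.89, 5.97 and 6.24 in untreated samples. It passed the test without untreated replicate 1 (change -0.48, limma adjusted p = 0.034) or untreated replicate 2 (-0.95, 0.0206). C3ar1, the receptor for the C3a fragment, had a change of -0.59 (SE 0.28, limma adjusted p = 0.23), with untreated replicate 1 at 5.84 and the others at 4.55 and 4.74.

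None of the 6 terminal pathway genes passed the test, and all had mean levels below the brightest background probe set. The smallest adjusted p were those of C8a and C8g, subunits of the membrane attack complex, with changes of 0.11 and 0.08 (limma adjusted p = 0.352 and 0.442). Among 9 measured membrane regulators, Cd59a and Thbd were higher. Thbd encodes thrombomodulin, an endothelial anticoagulant that also aids factor I. It lay at 6.52, 6.20 and 6.56 in degarelix samples, against 6.03, 6.06 and 6.07 in untreated samples, a change of 0.37 (SE 0.10, limma adjusted p = 0.0464). All its values were below the brightest background probe set, and the call was lost under each of the 3 other normalizations (adjusted p = 0.0764 to 0.135) and on leaving out any sample other than degarelix replicate 2 (0.0738 to 0.166). Cr1l encodes Crry, the main C3 convertase inhibitor of mouse cell surfaces. It lay at 8.97, 9.09 and 9.14 in degarelix samples and at 9.04, 8.91 and 8.88 in untreated samples, with a change of 0.12 (SE 0.08, 95% interval -0.05 to 0.30, limma adjusted p = 0.344).

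C4b, C4a, Cfb and C2 lie close together in the class III region of the major histocompatibility complex on chromosome 17, which allowed a look at the genes between and beside them. This set was added after the values of the complement genes had been seen. Of 17 genes from 4 before C4b to 4 after C2 in RefSeq order (protein-coding genes and C4a), 15 were measured, 11 of them outside complement. Of those 11, Tnxb was higher, Neu1 was lower and 9 did not pass the test, with a median change of 0.15. With 1 of 11 in each direction, against 4.19% higher and 7.51% lower over all genes, the count is too small to describe the region.

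Tnxb, the gene before C4b, encodes the matrix protein tenascin-X. It lay at 11.80, 11.73 and 11.89 in degarelix samples, against 10.06, 9.60 and 9.99 in untreated samples, a 3.8-fold difference (limma adjusted p = 8.05e-05). Tnxa, a pseudogene copy of part of Tnxb that lies between C4b and C4a, was outside the rule for this set and rose by 1.56 (SE 0.10, limma adjusted p = 9.70e-05). Nelfe, a transcription elongation factor gene next to Cfb, lay at 8.26, 8.26 and 8.32 in degarelix samples and at 8.40, 8.62 and 8.70 in untreated samples (limma adjusted p = 0.0674). Its values were on the opposite side to those of Cfb. Neu1, a lysosomal sialidase gene, was 0.595-fold in degarelix relative to untreated samples (limma adjusted p = 6.04e-04).

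**Figure D4:**
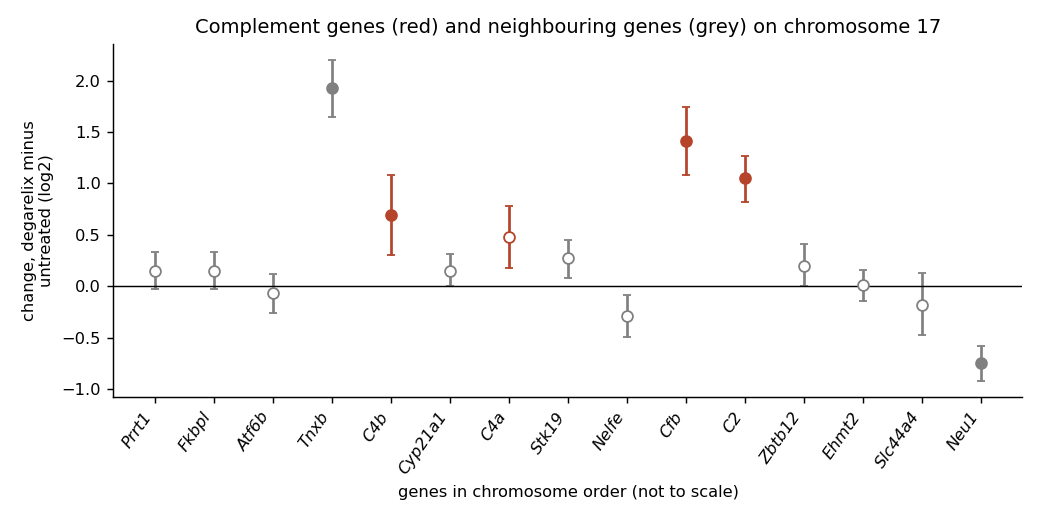
Change after degarelix (vertical axis, degarelix minus untreated, log2) of the complement genes C4b, C4a, Cfb and C2 in red and of the 11 other measured genes around them in grey, in chromosome order and not to scale. Bars are 95% intervals and filled points passed the test. Cfb, C2 and C4b are above 0 while Tnxb also lies above 0 and Neu1 below it, each with a filled point; the pseudogene Tnxa is not drawn.

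Because liver complement genes are part of the acute phase response, a list of acute phase proteins and of the receptors and factors that induce them was read in the same fit. Of 25 measured genes, 11 were higher and 7 lower after degarelix, against 4.19% higher and 7.51% lower over all genes. The genes with the smallest adjusted p were those of fibrinogen alpha chain, ceruloplasmin, serum amyloid A3 and the transcription factor C/EBP delta. Fga lay at 6.06, 5.98 and 6.23 in degarelix samples, against 7.88, 8.32 and 8.04 in untreated samples, a change of -1.99 (SE 0.12, limma adjusted p = 6.78e-05). Its degarelix values were below the brightest background probe set, so the size is less certain. Cp lay at 10.55, 10.67 and 10.66 in degarelix samples, against 9.64, 9.57 and 9.68 in untreated samples, a change of 1.00 (SE 0.07, limma adjusted p = 1.21e-04).

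The groups stood apart for both genes, in opposite directions. Saa3 changed by -0.95 (SE 0.10, limma adjusted p = 6.94e-04) and Cebpd by 1.15 (SE 0.13, limma adjusted p = 9.13e-04). The other members that fell were Saa1, Saa2, Orm1, Orm2 and Fgg, which encode secreted acute phase proteins, with changes of -1.66 (Orm1) to -0.55 (Orm2). The others that rose were the haptoglobin gene Hp (1.78), Il6ra (0.66), Lrg1 (0.59), Osmr (0.59), Nfkbiz (0.59), Il6st (0.54), Lbp (0.53), Stat3 (0.40) and Hpx (0.29). In every sample, Orm2 and Hpx stayed under 6.93, the level of the brightest background probe set. So did Saa3 and Orm1 in degarelix samples, and Cebpd, Lrg1 and Osmr in untreated samples. How large the changes of these genes are is thus less certain. The acute phase list moved both ways. Of the wider complement list 9 genes were higher and none was lower, but 4 were lower without untreated replicate 2. A link between the changes of these lists was not tested. With median-centred arrays 7 acute phase genes were higher, and without degarelix replicate 1 likewise 7.

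**Figure D5:**
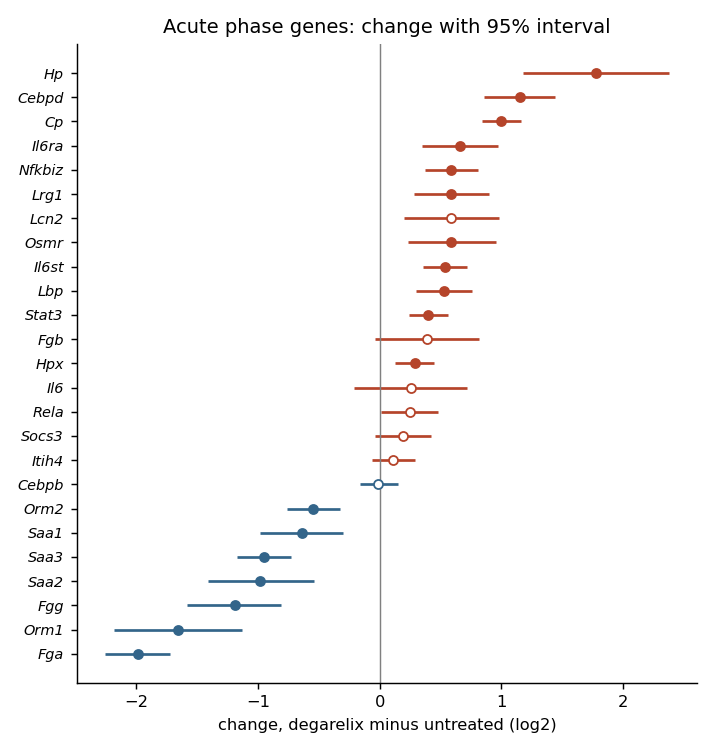
Change after degarelix (horizontal axis, degarelix minus untreated, log2) of the 25 measured acute phase genes, sorted by size, with 95% intervals. Red points are above 0, blue points below 0, and filled points passed the test. Hp lies at 1.78 and Fga at -1.99, the values of Fga in degarelix samples being below the brightest background probe set.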

How the data were processed

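Biotin-labelled RNA of 6 tumors was read on 6 arrays. The deposited values are log2 expression values per transcript cluster, made by the authors with Affymetrix Expression Console and RMA, per the submitters' processing notes, with no version or setting named there. RMA corrects background, equalises the distributions of the arrays and summarises probes, which compresses changes of dim genes. The number of arrays limits the precision.

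Of 72688 rows, 6732 control rows were left out. Of 65956 clusters, 30604 had 1 gene symbol, 2146 several and 33206 none; names came from the platform annotation, and 827 symbols were updated through Entrez identifiers with RefSeq (GRCm38.p6). The brightest cluster of each of 30142 genes was tested with limma 3.58.1 in R 4.3.3 (functions lmFit and eBayes), degarelix minus untreated, two-sided, Benjamini-Hochberg adjusted over all genes at 0.05; this limma fit gave every adjusted p across genes. The fit was tested on simulated data. Intervals are 95% and unadjusted.

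Genes and lists were chosen with earlier results of these data known. The text names all measured genes of the set; per role of the wider list those that passed, or the 2 with the smallest adjusted p; the first 4 acute phase genes; and defining markers. A planned search for genes resembling C3 was made for Cfb instead. Background correction and scan date could not be varied. Tables and figures used Python 3.11.15, pandas 2.3.3 and matplotlib 3.10.9.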

Additional observations from a re-analysis of the deposited data

How the results depend on the processing

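The 15 alternatives were 3 normalizations (median centring, quantile and cyclic loess), an intensity trend with robust variances, only genes above the median level, all clusters of a gene averaged, all clusters as the unit, the replicate number as a block, a test against a 1.2-fold change and leaving out each sample. Cfb, C2, Serping1, Cd59a, Vtn, C1ra and C1rb kept their direction and their call in limma under all 15, with adjusted p up to 0.00807, 0.00405, 0.0055, 0.032, 5.67e-04, 0.0283 and 0.0472. The number of the 7 measured genes that were higher was 4 or 5 and that of lower ones 0 under all 15. Cd55 was left out where only genes above the median level were tested. C4b lost its call under 7 of the 15 alternatives, among them the 1.2-fold test (limma adjusted p = 0.335). The change of Cd55 was -0.11 to 0.04 on leaving out single samples, with 0.04 without untreated replicate 1 and 0.01 without untreated replicate 3, so its sign is not settled. Of the wider complement list, 7 to 9 genes were higher and 0 to 4 lower on leaving out single samples; the 4 lower genes, without untreated replicate 2, were C1qa, C1qb, C1qc and Cd93. With only genes above the median level 1 was lower, Cd93. Of the acute phase list, 7 genes were higher with median centring and 3 were higher and 4 lower in the 1.2-fold test, and 7 to 10 were higher and 5 to 7 lower on leaving out single samples. Of 73 measured cell type markers, 4 were higher and 3 lower; 2 were higher in the 1.2-fold test, and 3 to 5 were higher and 3 to 11 lower on leaving out single samples. Over all genes, those higher numbered 1262, against 691 with median centring, 241 in the 1.2-fold test and 624 to 1651 on leaving out single samples. Those lower numbered 2264, against 508 in the 1.2-fold test and 966 to 3253. The cause of these shifts was not tested. Whether replicate numbers pair the samples is not known. Deviations from the group means correlated at 0.16, 0.04 and 0.20 for equal numbers, and at -0.17 to 0.03 for unequal ones. With the replicate block 4 of the 7 genes were higher, with C4b at an adjusted p of 0.0536 in limma. The labels name nothing else that samples of equal number share. Levels near or below the brightest background probe set limit what can be seen of Cd55, the terminal pathway and the receptors.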

Other observations

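The genes whose profile over the 6 arrays was closest to that of Cfb were sought by the root mean square distance of log2 values, each gene centred on its untreated mean. They were Steap4, a metalloreductase gene (distance 0.129), Dagla, a diacylglycerol lipase gene (0.134), Tnxa (0.148), Tmem176a (0.151) and Ly6c2 (0.166). Steap4 lay at 10.35, 10.23 and 10.29 in degarelix samples, against 8.98, 8.72 and 9.05 in untreated samples, and had its lowest value in untreated replicate 2, as Cfb did. Tnxa lay at 10.96, 10.97 and 11.02 in degarelix samples, against 9.62, 9.20 and 9.44 in untreated samples. Tnxa is a partial copy of Tnxb and lies between C4b and C4a, and signal shared between these copies was not tested. These genes were chosen for their likeness, which is a description over 6 arrays.

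Of the remaining marker lists, adipocyte, hepatocyte and smooth muscle lists each held 1 gene that was lower after degarelix in limma, namely Fabp4 (change -1.12, adjusted p = 9.78e-04), Ttr (-1.34, 0.00478) and Rgs5 (-0.73, 0.0072). Their defining markers Adipoq, Alb and Acta2 did not pass; Adipoq lay at 3.59 to 3.75 in degarelix and 3.44 to 3.56 in untreated samples, and Alb at 3.74 to 3.93 and 3.76 to 3.80. Of the neutrophil list 1 of 7 genes was higher (Ly6g, change 0.38, adjusted p = 0.0474), while S100a8 lay at 3.36 to 3.98 and 3.51 to 3.84. All values of Rgs5 and Ly6g and the degarelix values of Fabp4 were below the brightest background probe set, so these changes are less certain. None of 9 lymphocyte, 7 endothelial or 7 pan-leukocyte genes passed. Over all genes 4.19% were higher and 7.51% lower, and over the 73 measured markers of all lists 4 genes were higher and 3 lower. Of 6 measured genes of prostate tumor epithelium 1 was higher, Krt19 (change 1.88).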
